A study of Homo sapiens with 4 samples.

Results

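The annexins measured here were 10 genes (ANXA1 to ANXA7, ANXA9, ANXA10 and ANXA11) of the 18132 genes that had a probe set of their own on the array. They were covered by the 41 probe sets that the platform's annotation pairs with one of these symbols alone. A probe set is a group of short probes read together as 1 value. The genes were chosen by symbol, with earlier results of the same arrays known, among them the log2 difference of ANXA10 between siRNAs in HCT116. All values below, from these same 4 arrays, are therefore descriptions. Counts past a threshold are printed beside the share of all genes past it, and nothing is read from them.

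Gene expression had been profiled in 2 human colorectal cancer cell lines after RNA interference against BORIS, which CTCFL encodes and which is related to the insulator protein CTCF. Caco-2, a line that can take on features of absorptive enterocytes, and HCT116 each received a negative control siRNA or BORIS siRNA with a lipid reagent, and total RNA was taken after 3 days. Each of the 4 samples was hybridised to 1 Affymetrix PrimeView array, so each group held 1 array. The labels name no replicate cultures, so precision is limited by the number of arrays.

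Annexins are cytosolic proteins that bind acidic phospholipids when calcium rises, through a conserved core of annexin repeats. The variable N-terminal tail sets their partners, among them S100 proteins. In epithelium they are known for membrane repair, vesicle traffic, links between membrane and actin, and control of inflammation. ANXA9 and ANXA10 are the atypical members, whose calcium-binding sites are largely lost, and ANXA10 is used in pathology as a marker of gastric epithelium and of serrated colorectal lesions.

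The deposited values are on the log2 scale, on which a difference of 1 is 2-fold. Array medians lay between 5.46 and 5.48. Background was set on each array at the 95th percentile of its probe sets for olfactory receptors, 4.82 to 5.18. Expressed genes of a line were those whose probe set was at or above the array median on at least 1 of its 2 arrays. CTCFL, the siRNA target, was above background in 1 of 7 probe sets and only in Caco-2, at 5.07 with control and 5.09 with BORIS siRNA, so the arrays give no measure of the knockdown. Of 8 intestinal epithelial markers, 6 were above background on all 4 arrays, VIL1 was so only in Caco-2 and CDX1 on no array. None of 7 fibroblast markers was above background on any array. Of 5 blood cell markers, 2 (CD68 and HBB) were above it on all 4 arrays, and lysozyme (LYZ), which intestinal epithelium also makes, only in Caco-2, at 13.26 and 13.12. Of 4 endothelial markers 2 (VWF and KDR) and of 4 neuronal markers 3 (RBFOX3, SNAP25 and TUBB3) were above it on all 4 arrays, and SYT1 only in HCT116. Their part in the annexin values was not tested. The poly-A spike-in controls differed between BORIS and control siRNA by 0.89 in HCT116 and by -0.05 in Caco-2. The hybridisation controls differed by 0.34 and -0.01. The log2 difference between the 3' and 5' control probe sets of ACTB was 1.05 with control and 0.97 with BORIS siRNA in Caco-2. In HCT116 it was 1.34 and 1.47. That of GAPDH lay between -0.0048 and 0.0406 on the 4 arrays. The part of all these controls in the HCT116 values and line differences below was not tested.

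The promoters of the members were of unlike composition, and 3 are shown because they belong to the member with the largest positive siRNA difference in Caco-2 (ANXA1), to that in HCT116 (ANXA10) and to a CpG-rich member (ANXA5). Each run gives the 250 bases before the start of the RefSeq transcript (build GRCh38.p14), and capitals mark the TATA box word TATAAA and every CG. ANXA1 lies at chr9:73151615-73151864 on the plus strand, ANXA10 at chr4:168092287-168092536 on the plus strand and ANXA5 at chr4:121696981-121697230 on the minus strand.
ANXA1: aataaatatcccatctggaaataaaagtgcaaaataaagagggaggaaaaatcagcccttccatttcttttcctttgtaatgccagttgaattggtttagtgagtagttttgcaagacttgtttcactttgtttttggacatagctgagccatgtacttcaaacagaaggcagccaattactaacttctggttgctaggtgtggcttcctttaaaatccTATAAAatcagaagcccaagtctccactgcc
ANXA10: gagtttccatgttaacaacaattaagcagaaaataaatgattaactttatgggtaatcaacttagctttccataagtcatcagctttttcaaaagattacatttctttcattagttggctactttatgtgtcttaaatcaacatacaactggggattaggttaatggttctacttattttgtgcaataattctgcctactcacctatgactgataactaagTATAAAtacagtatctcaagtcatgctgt
ANXA5: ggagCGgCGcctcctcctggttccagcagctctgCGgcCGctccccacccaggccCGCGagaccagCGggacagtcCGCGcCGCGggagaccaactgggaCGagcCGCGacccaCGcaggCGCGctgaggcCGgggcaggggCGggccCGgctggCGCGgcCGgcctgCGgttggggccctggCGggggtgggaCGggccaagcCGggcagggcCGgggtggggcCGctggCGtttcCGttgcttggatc

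The windows of ANXA1 and ANXA10 held no CG, and each held TATAAA on the gene's strand, beginning 31 and 29 bases before the start. The ANXA5 window held 31 CG and no TATAAA. All 10 genes matched the RefSeq table, with 14 start windows between them, and the median window of all 35116 held 11 CG. Windows without a CG made up 6.06% of all windows, and 2 of the 14 had none. TATAAA on the gene's strand stood in 6.80% of all windows and in 4 of the 14, the others being ANXA2, at 31 bases, and 1 of 3 ANXA11 starts, at 61 bases. CCCTC, the word for which CTCF is named, was searched on both strands. It stood in 11 of the 14 windows and in 66.6% of all windows. These matches describe the letters of the windows only.

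Most members were read well above background. Of the 41 probe sets, 38 were above background on all 4 arrays and 3 were below it on all 4, 1 of ANXA1 and 2 of ANXA4. All 38 were bright in HCT116, meaning at or above the array median on at least 1 of the line's arrays, and 37 of them in Caco-2. The exception was the 1 probe set of ANXA6, which read 5.28 and 5.38 in Caco-2, between background and median. ANXA6, ANXA9 and ANXA10 had 1 probe set each, so their values have no check from another probe set. Probe sets of 1 gene share the RNA and often probes, and are not replicates. The brightest probe set of a gene on average represents it below.

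**Figure D1:**
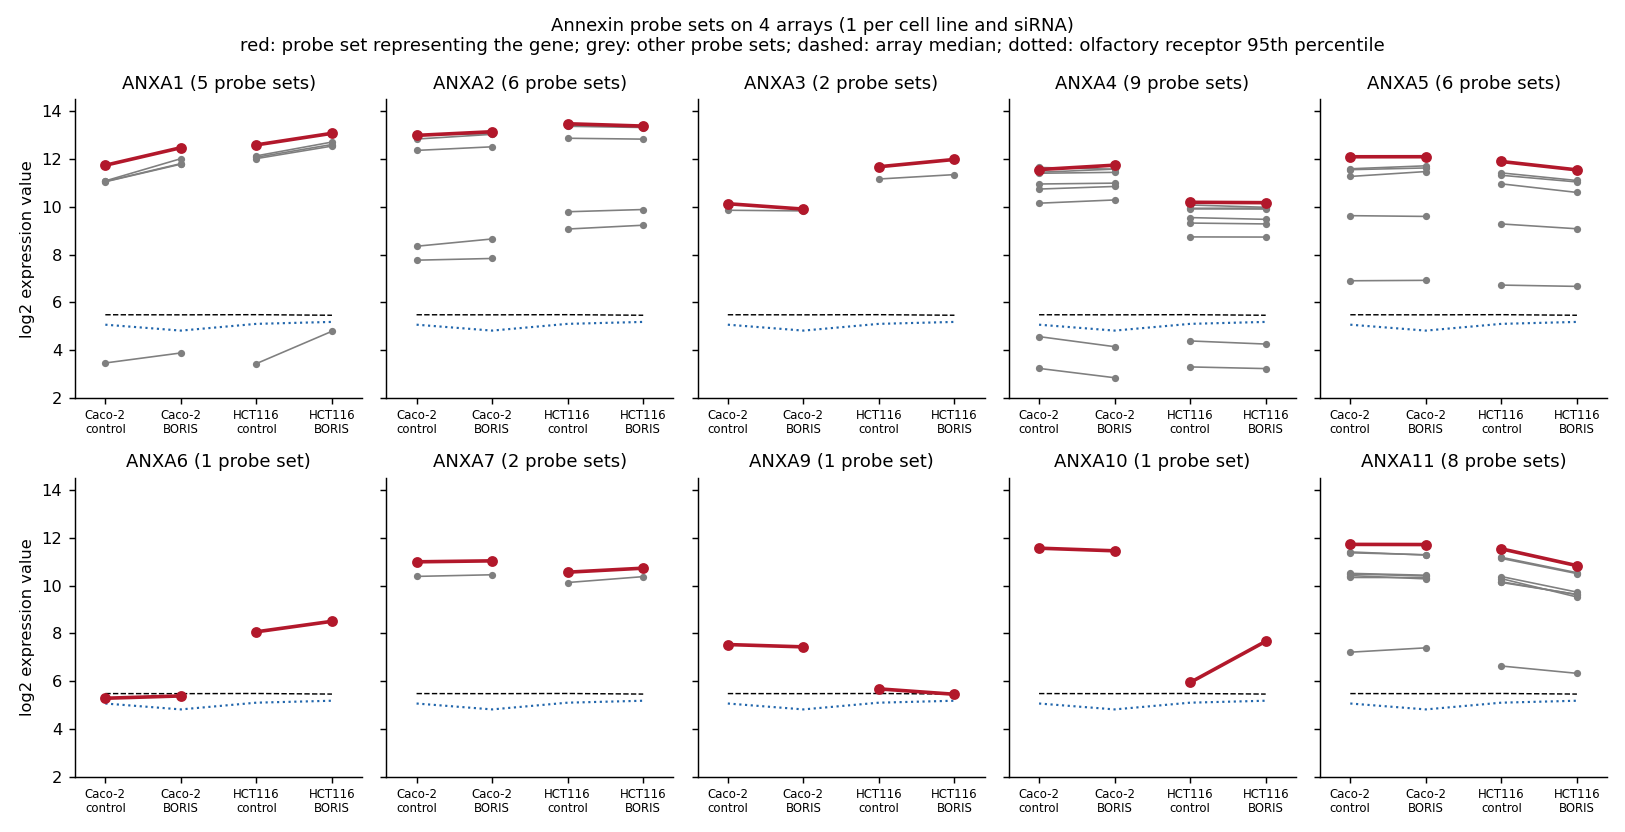
Log2 expression value (vertical axis) of each annexin probe set on the 4 arrays (horizontal axis, cell line and siRNA), with the 2 arrays of a line joined; red marks the probe set that represents the gene, the dashed line the array median and the dotted line background. The ANXA10 probe set reads 11.57 and 11.46 in Caco-2 and 5.94 and 7.67 in HCT116.

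The first question was which annexins differed between BORIS and control siRNA. Among expressed members, 0 of 9 in Caco-2 and 1 of 10 in HCT116 were higher at 2-fold or more, where 0.404% and 0.583% of all expressed genes were. None was lower at 2-fold or more in either line, where 0.0481% of expressed genes in Caco-2 and 1.45% in HCT116 were. At 1.5-fold or more, 1 member was higher (2.78% of expressed genes) and 0 lower (1.14%) in Caco-2, and in HCT116 1 was higher (4.36%) and 1 lower (9.18%). No replicate checks these differences, and they carry no p-value, since a group holds 1 array. Of the genes past 2-fold in HCT116, 28.7% were higher, and 43.8% after quantile normalization. The median difference of the 9 expressed members in Caco-2 was 0.0016 against 0.0026 over all expressed genes, and that of the 10 in HCT116 was 0.08 against -0.05. The members past 1.5-fold were ANXA1 in Caco-2 and ANXA10 and ANXA11 in HCT116.

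ANXA10 gave the widest siRNA difference of the 10 members. Its probe set read 11.57 with control siRNA and 11.46 after BORIS siRNA in Caco-2, -0.11 apart. In HCT116 it read 5.94 with control siRNA, not far above the background of 5.10 on that array, and 7.67 with BORIS siRNA, a difference of 1.73 or 3.31-fold. It was the 4th highest difference among the 10631 genes expressed in HCT116. Even so, the HCT116 array with BORIS siRNA stayed far below both Caco-2 arrays. The spread of ANXA10 between replicate arrays is unknown in these data.

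ANXA1, a glucocorticoid-regulated protein that limits phospholipase activity and acts on formyl peptide receptors, read higher with BORIS siRNA in both lines. Its representing probe set read 11.74 with control and 12.48 with BORIS siRNA in Caco-2, and 12.60 and 13.08 in HCT116. The differences were 0.74 in Caco-2 and 0.48 in HCT116, or 1.67-fold and 1.40-fold. All 4 bright probe sets were higher in each line, by 0.74 to 0.93 in Caco-2 and by 0.48 to 0.58 in HCT116. Their ranges do not overlap, and each of these 4 moved more in Caco-2 than in HCT116, but they share the RNA and are not replicates. With all 5 probe sets averaged, a dim one included, the differences were 0.71 in Caco-2 and 0.69 in HCT116. Ordered by the smaller of the differences in the 2 lines, ANXA1 ranked 101st from the highest among the 9855 genes expressed in both. The dim probe set of ANXA1 stayed below background on all 4 arrays and is given no fold.

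ANXA11, a calcium-binding protein that links RNA granules to lysosomes, read lower with BORIS siRNA in HCT116. Its representing probe set stood at 11.54 with control and at 10.84 after BORIS siRNA, so the difference was -0.70. All 8 probe sets were lower there, with differences from -0.77 to -0.31 and a median of -0.64. In Caco-2 the same probe set read 11.73 and 11.72, and the 8 differences ran from -0.14 to 0.18, with 7 below 0. The 8 HCT116 differences all lay below the 8 Caco-2 ones, but the probe sets share the RNA and are not replicates.

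ANXA5, the phosphatidylserine-binding protein used to stain apoptotic cells, had the same direction in HCT116 at a smaller size. Its representing probe set read 11.90 with control and 11.55 after BORIS siRNA, which is -0.35, and all 6 probe sets were lower, with differences from -0.36 to -0.05. In Caco-2 it read 12.10 on both arrays, and 5 of the 6 probe sets were slightly higher, the largest difference being 0.20.

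**Figure D2:**
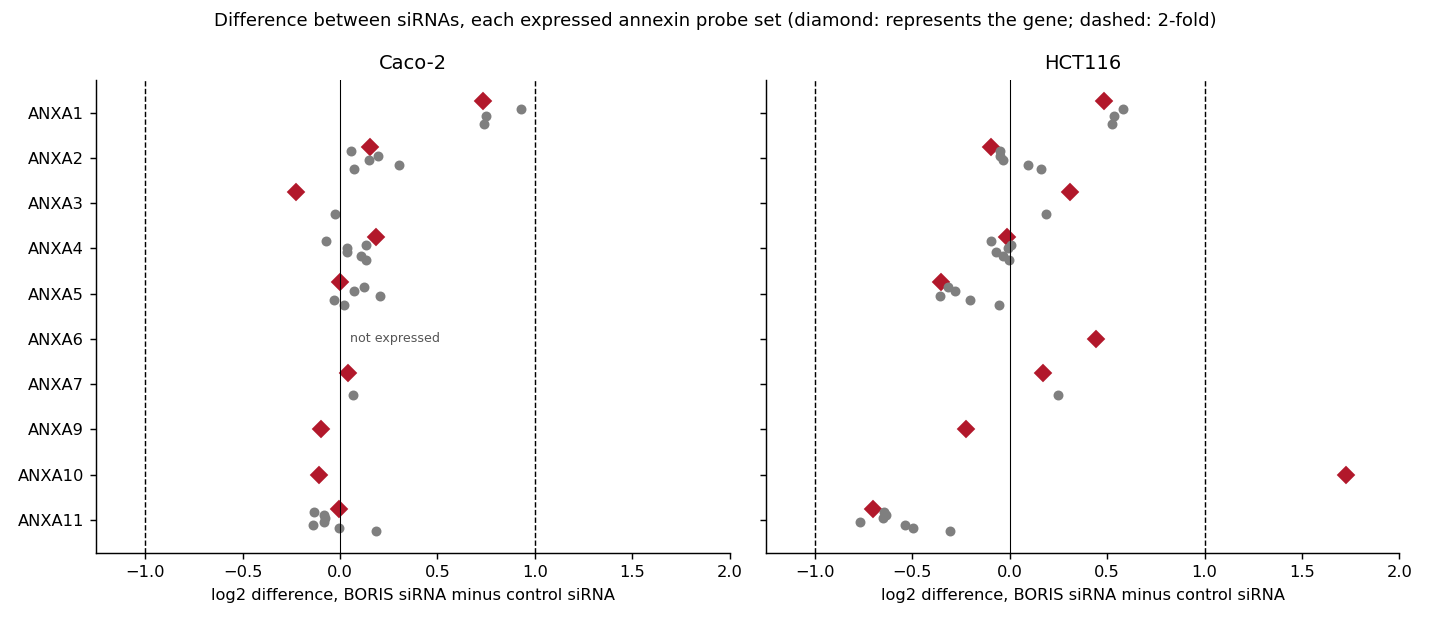
Log2 difference between BORIS and control siRNA (horizontal axis) of each expressed annexin probe set by gene (vertical axis), in Caco-2 (left) and HCT116 (right); diamonds represent the gene, circles are its other probe sets and dashed lines mark 2-fold. ANXA1 lies right of 0 in both panels, ANXA11 lies left of 0 in HCT116 with all 8 probe sets, and ANXA10 in HCT116, at 1.73, is the only point past a dashed line.

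The representing probe sets of the other members were all under 1.5-fold in both lines. ANXA6, whose core is duplicated and which scaffolds signalling proteins at membranes, read 8.07 with control and 8.51 with BORIS siRNA in HCT116, or 0.44 higher. In Caco-2 it was not expressed by the rule above. ANXA3 read 10.13 and 9.91 in Caco-2, and 11.68 and 11.99 in HCT116. Its 2 probe sets were both lower in Caco-2, at -0.23 and -0.03, and both higher in HCT116, at 0.31 and 0.18. ANXA7, which binds the calcium sensors sorcin and PDCD6, was higher in both lines, with differences of its 2 probe sets of 0.04 and 0.07 in Caco-2 and of 0.17 and 0.25 in HCT116. ANXA9 read 7.53 and 7.44 in Caco-2 and 5.68 and 5.45 in HCT116, the last of these just under the array median.

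ANXA2 and ANXA4 differed little between siRNAs. ANXA2, which with S100A10 forms a complex at the plasma membrane that promotes plasmin formation, read 13.00 and 13.15 in Caco-2 and 13.48 and 13.39 in HCT116. Its 6 probe sets differed by 0.05 to 0.31 in Caco-2 and by -0.10 to 0.16 in HCT116. ANXA4, an annexin of epithelial membranes, read 11.56 and 11.75 in Caco-2 and 10.19 and 10.18 in HCT116, and its 7 bright probe sets differed by -0.07 to 0.18 in Caco-2 and by -0.10 to 0.0076 in HCT116. By gene, 5 of the 9 expressed members were higher and 4 lower in Caco-2, where 49.4% of all expressed genes were lower, and 5 of 10 were higher and 5 lower in HCT116, where 55.4% were lower.

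The next question was whether both lines shared an effect. Of the 9 members expressed in both lines, ANXA1 and ANXA7 were higher with BORIS siRNA in each and ANXA9 and ANXA11 lower in each (ANXA11 by only -0.0064 in Caco-2, turning to 0.0031 after a loess correction), where 24.4% of the 9855 genes were higher and 29.8% lower in each. In a limma fit with the cell line as a block, over the 4 arrays, 0 of 10 members passed a Benjamini-Hochberg adjusted p of 0.05, and 0% of the 11165 genes tested did. At an unadjusted limma p under 0.05 stood 1 member, ANXA1, and 6.00% of all genes. The mean effect of both lines was 0.61 (SE 0.11) for ANXA1, 0.81 (SE 0.40) for ANXA10 and -0.35 (SE 0.18) for ANXA11. The fit leaves 1 residual degree of freedom, which is the disagreement between the lines. The eBayes step draws this spread toward the one common to genes of similar level. The SE is therefore not a gene's own disagreement between the lines. After quantile normalization of the deposited values the fit placed 2 members past the threshold, ANXA1 at 0.61 (SE 0.11) and ANXA10 at 0.84 (SE 0.21). A loess correction placed 1 there, ANXA1 at 0.61 (SE 0.11). Of all genes, 82 passed after quantile normalization and 57 after the loess correction. The ANXA1 effect and SE were nearly those of the main fit, where ANXA1 did not pass, and the cause was not tested. The ANXA10 value shows no shared direction, since after quantile normalization its differences were -0.11 in Caco-2 and 1.80 in HCT116, and both genes were chosen with such values known.

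**Figure D3:**
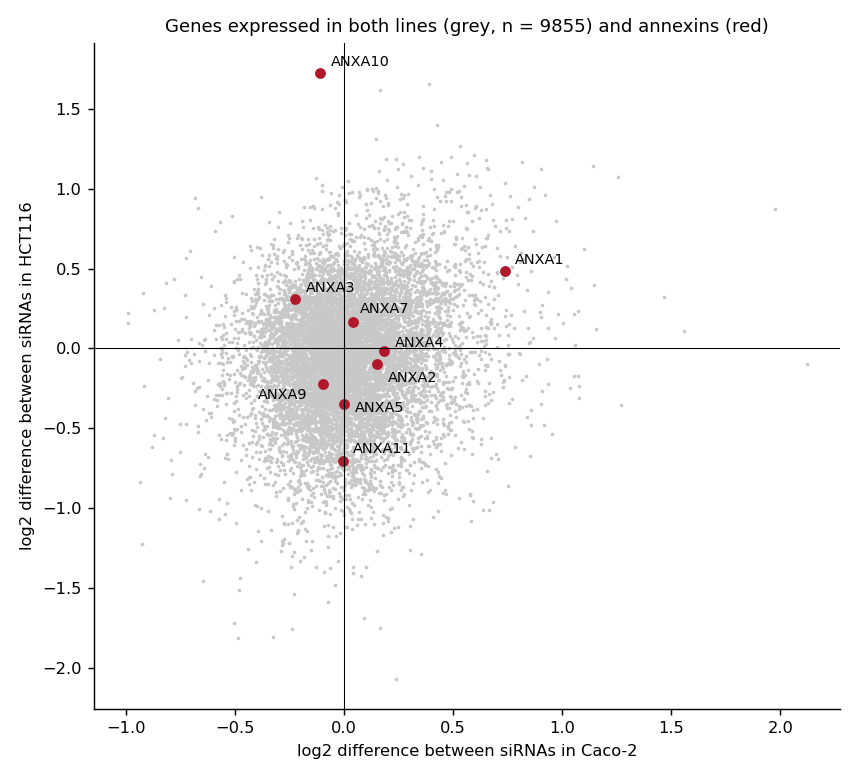
Log2 difference between siRNAs in Caco-2 (horizontal axis) and in HCT116 (vertical axis) for the 9855 genes expressed in both lines (grey points), with the 9 annexins among them in red. ANXA1 lies at 0.74 and 0.48, ANXA10 at -0.11 and 1.73 and ANXA11 at -0.0064 and -0.70.

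The last question was how the lines differed. For all 10 representing probe sets, the 2 HCT116 values did not overlap the 2 Caco-2 values, which held for 71.1% of the 11165 genes tested. At 2-fold or more without overlap, 2 members were higher in HCT116 (10.0% of genes) and 3 lower (10.4%). In the limma fit with siRNA as a block, 4 members were higher in HCT116 at an adjusted p under 0.05 (19.4% of genes) and 3 lower (19.8%). The median absolute line difference was 1.10 for the members and 0.43 for all genes. The arrays of a line differ by siRNA and are not plain replicates. The fit takes out the siRNA effect that the lines share, so only variation of the line difference between siRNAs enters the spread. The eBayes step then draws that spread toward the one common to genes of similar level. The SE below is therefore not the gene's own variation between siRNAs.

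The widest line difference was that of ANXA10, with means of 11.52 in Caco-2 and 6.81 in HCT116. The difference was -4.71 (SE 0.40), or 26.2-fold, and it ranked 51st from the lowest among the 11165 genes. It was -5.63 between the control siRNA arrays and -3.79 between the BORIS siRNA arrays. ANXA9, the other atypical member, had the same direction, with means of 7.48 and 5.56 and a difference of -1.92 (SE 0.19). Its HCT116 values of 5.68 and 5.45 lay near the array median and not far above background, so the size is uncertain. With 16 added on the linear scale the ANXA9 difference was -1.62. ANXA4 stood at -1.47 (SE 0.14), with means of 11.66 and 10.18, and its 7 bright probe sets lay between -1.58 and -1.46. Thus the members lower in HCT116 at 2-fold or more were ANXA4 and both atypical annexins.

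ANXA6 and ANXA3 went the other way. ANXA6 had means of 5.33 in Caco-2 and 8.29 in HCT116, a difference of 2.96 (SE 0.19) or 7.76-fold. Its Caco-2 values lay between background and the array median, so the size is uncertain. With 16 added on the linear scale the ANXA6 difference was 2.55. ANXA3 had means of 10.02 and 11.83, a difference of 1.82 (SE 0.17), and its other probe set gave 1.42. ANXA1 was higher in HCT116 by 0.73 (SE 0.11), with its 4 bright probe sets between 0.73 and 0.91. The HCT116 control array, at 12.60, lay above the Caco-2 array with BORIS siRNA, at 12.48, by less than ANXA1 differed between siRNAs in either line.

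ANXA2 was higher in HCT116 by 0.36 (SE 0.09), but its probe sets disagreed on the size. The 4 brightest, all of the _x_at or _s_at kind and with values of 12.37 and above, gave 0.35 to 0.42. The 2 dimmer ones, with values from 7.77 to 9.89, gave 1.34 (an _x_at probe set) and 1.35 (an _a_at probe set). The highest value of any probe set on the 4 arrays was 14.17. The processed pseudogene ANXA2P2, a near-identical copy of ANXA2, read 13.19, 13.30, 13.44 and 13.43 on its 1 probe set, in the order Caco-2 control, Caco-2 BORIS, HCT116 control and HCT116 BORIS. Signal from the gene and from such a copy cannot be told apart here, so the ANXA2 level is uncertain. ANXA5, ANXA7 and ANXA11 were lower in HCT116, at -0.37 (SE 0.13), -0.37 (SE 0.14) and -0.54 (SE 0.18). These 3 did not pass the limma threshold of an adjusted p of 0.05. For ANXA11 the line difference was -0.19 between the control arrays and -0.88 between the BORIS siRNA arrays.

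**Figure D4:**
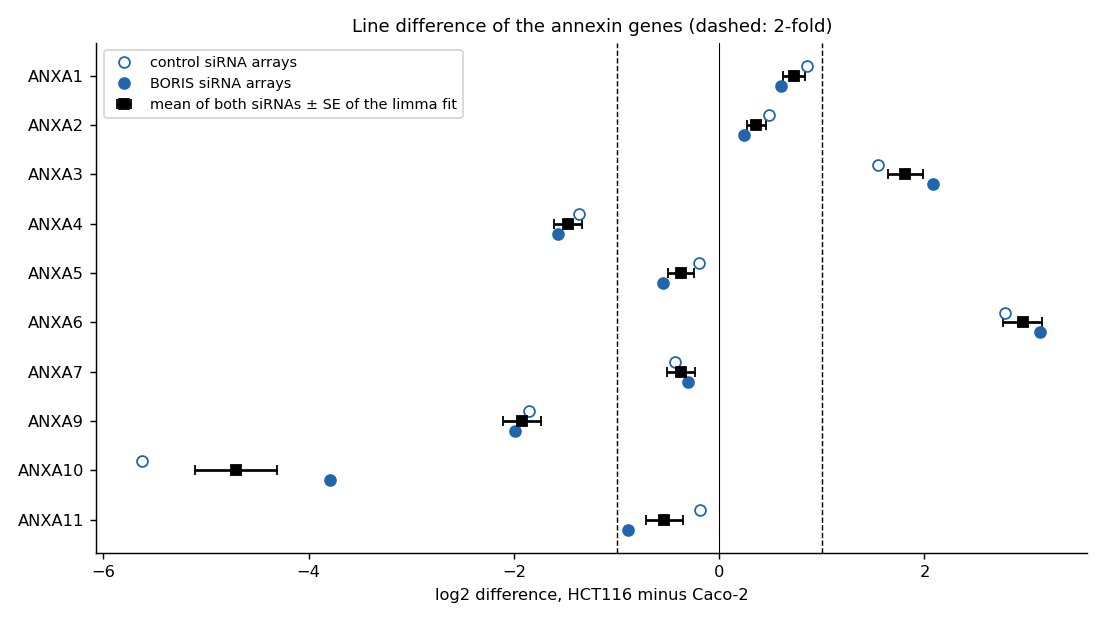
Log2 difference of HCT116 minus Caco-2 (horizontal axis) for the probe set that represents each annexin (vertical axis), between the control siRNA arrays (open circles), between the BORIS siRNA arrays (filled circles) and as their mean with the SE of the limma fit over 4 arrays (squares with bars). ANXA6 and ANXA3 lie right of the 2-fold line and ANXA4, ANXA9 and ANXA10 left of it, ANXA10 at -4.71.

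Genes whose proteins work with annexins were read from a list of 15 binding partners and receptors, of which 13 had a probe set of their own; PDCD6IP and RASA1 were not analysed here. In Caco-2, 0 of 8 expressed partners were past 1.5-fold in either direction, where 2.78% of all expressed genes were higher and 1.14% lower. In HCT116, 1 of 10 was higher (4.36% of expressed genes) and 1 lower (9.18%) at 1.5-fold. None passed 2-fold there, where 0.583% of expressed genes were higher and 1.45% lower. The median difference of the partners was 0.05 in Caco-2 and -0.03 in HCT116, beside 0.0026 and -0.05 over all genes. S100A10, the partner of ANXA2, read 13.23 with control and 12.74 with BORIS siRNA in Caco-2, and 11.82 and 11.31 in HCT116. It was lower in both lines, at -0.49 and -0.51, while ANXA2 differed by 0.15 and -0.10. S100A11, the partner of ANXA1, was higher by 0.07 and 0.22.

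S100A6, which binds ANXA11, had differences of 0.23 (Caco-2) and -0.02 (HCT116). SRI (sorcin) differed by 0.03 and 0.17 and PDCD6 by 0.12 and -0.05. The HCT116 partner higher at 1.5-fold was PLA2G4A, the cytosolic phospholipase that releases arachidonic acid, with values of 7.61 and 8.29 and a difference of 0.69. Its Caco-2 difference was -0.14. The lower one was AHNAK, a giant protein of the membrane skeleton that binds the ANXA2 complex, with values of 10.38 and 9.71 in HCT116 and a difference of -0.67, and of 0.02 in Caco-2. PLAT, the plasminogen activator that ANXA2 can bind, differed by -0.58 in HCT116 and was below background in Caco-2. The formyl peptide receptor genes FPR1, FPR2 and FPR3, through which secreted ANXA1 acts, were below background on all 4 arrays.

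By line, 3 of 10 partners tested were higher in HCT116 (19.4% of all genes) and 4 lower (19.8%) at an adjusted p under 0.05 in the limma fit. S100A4 was higher in HCT116 by 4.62, PLAT by at least 3.26 and HLTF, a chromatin remodeller bound by ANXA2 with S100A10, by at least 3.99, since the last 2 were below background in Caco-2. S100A10 stood at -1.42 and S100A11 at -0.90, lower in HCT116, whereas their annexins ANXA2 and ANXA1 were both higher there.

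A list of genes of plasma membrane repair and phosphatidylserine exposure held 13 with a probe set of their own. In Caco-2, 8 of 11 expressed members were higher with BORIS siRNA, where 5245 of 10389 expressed genes were. Their median was 0.13, beside 0.0026 over all expressed genes. None was past 1.5-fold in Caco-2, where 2.78% of expressed genes were higher and 1.14% lower. In HCT116, 11 of 12 were lower, with a median of -0.28, where 55.4% of all expressed genes were lower. The only member past 1.5-fold in HCT116, where 9.18% of expressed genes were lower and 4.36% higher, was ATP11A. This flippase, which returns phosphatidylserine to the inner leaflet, read 8.75 with control and 7.72 with BORIS siRNA there, a difference of -1.03. TMEM30A, the shared subunit of such flippases, was the exception to the direction in HCT116, at 0.34, and was also higher in Caco-2, at 0.57. SYT7, a calcium sensor of lysosome exocytosis, stood at 0.46 in Caco-2 and at -0.55 in HCT116, and the repair protein gene TRIM72, below background in Caco-2, at -0.40 in HCT116. In HCT116 the poly-A controls moved by 0.89 between the same arrays, and their part in the list's direction was not tested.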

How the data were processed

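The deposited table gave log2 expression values of 49395 probe sets on 4 PrimeView arrays, which the authors had normalized; per the labels' protocols, RNA was extracted with TRIzol and labelled by in vitro transcription, and how background was corrected and values normalized and summarised is not given in the sources used here. The unit follows from the range of 2.13 to 14.17. The platform's annotation named the probe sets. A gene was represented by its probe set with the highest mean among those paired with it alone. Differences were taken within a line without a test. Shared and line effects came from limma 3.58.1 in R 4.3.3 (lmFit, eBayes with trend, line and siRNA in 1 model). The Benjamini-Hochberg adjustment ran over 11165 genes reaching the array median on at least 1 array. The line test was checked on simulated data, and the test of a shared effect was not. In the simulated data the share of false calls among those made was above the nominal level in every set. The simulated data held independent noise at the fitted spread, and no siRNA effect or added spread between replicate cultures. The adjusted p-values of the line test may therefore be too small, by an amount that the simulation does not give. All members, and the partners and the 4 genes of each list with the largest differences, were to be named. The members and lists were chosen with earlier results of these data known. Alternatives were 2 other filters, the mean of a gene's probe sets, probe sets other than the _x_at and _s_at kinds alone, quantile normalization, loess correction (span 0.3), 16 added on the linear scale, eBayes without trend, no siRNA block, and the line difference within each siRNA. Array number limits the precision.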

Additional observations from a re-analysis of the deposited data

Results flagged for a closer look

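ANXA10 and ANXA3 differed between siRNAs in opposite directions in the 2 lines, in all their bright probe sets. Their Caco-2 differences were small, at -0.11 for ANXA10 and -0.23 and -0.03 for ANXA3. The median absolute difference of all genes expressed in Caco-2 was 0.15. ANXA2, ANXA4 and ANXA5 also had opposite signs in their representing probe sets, but not in all their bright ones. The HCT116 difference minus the Caco-2 difference was 1.84 for ANXA10, with 1 probe set, and 0.53 for ANXA3, with 2. With 1 array per group, this difference between the lines was not tested.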

How the results depend on the processing

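No paired analysis was possible by replicate number because the labels give none, and the fits hold cell line and siRNA as blocks. The counts of members at 2-fold or more (0 in Caco-2, 1 higher and 0 lower in HCT116) were the same under all 7 alternatives tried on them. The number of members past the line test and lower in HCT116 rose from 3 to 5 after quantile normalization, to 5 after the loess correction and to 5 with 16 added on the linear scale, by ANXA5 and ANXA11 in each case. It was 4, with ANXA11 added, when probe sets were averaged (limma adjusted p = 0.0318) and when those of the _x_at and _s_at kinds were dropped (0.0471). The number higher in HCT116 went from 4 to 3, without ANXA2, when dim probe sets were kept (limma adjusted p = 0.0625) and with eBayes without trend (0.167), and neither number changed without the siRNA block. The number past the test of a shared effect was 2 after quantile normalization and 1 after the loess correction, where 82 and 57 of all genes passed; the cause was not tested. Over its alternatives, the HCT116 difference of ANXA10 ranged from 1.501 to 1.80, that of ANXA1 from 0.46 to 0.69 and that of ANXA11 from -0.72 to -0.59, and the Caco-2 difference of ANXA1 from 0.71 to 0.93. The small differences of ANXA2 in HCT116 (up to 0.16) and of ANXA4 (to -0.07) and ANXA5 (to -0.03) in Caco-2 changed sign when a gene's probe sets were averaged, when those of the _x_at and _s_at kinds were dropped, or in both cases, and that of ANXA11 in Caco-2 (to 0.0031) after the loess correction. No line difference changed sign, but that of ANXA2 changed in size. It went from 0.36 to 0.705 when probe sets were averaged and to 1.35 when those of the _x_at and _s_at kinds were dropped. Among all expressed genes in HCT116 the share of 2-fold genes that were higher was 28.7%, and 43.8% after quantile normalization and 41.5% when probe sets were averaged, but 21.3% with 16 added on the linear scale.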

Other observations

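ANXA2R, named as a receptor of annexin A2 and chosen here after its values were seen, read 8.23 and 8.21 in Caco-2 with control and BORIS siRNA, and 5.09 and 4.33, both below background, in HCT116. Of the other ANXA2 pseudogenes, ANXA2P3 was below background on all 4 arrays, and ANXA2P1 read 5.04 and 4.90 in Caco-2 and 5.61 and 5.76 in HCT116.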
